A study of Drosophila melanogaster with 4 samples.

Results

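The 1081 BEAF-enriched regions on the X chromosome of Drosophila melanogaster embryos are described here. They are all the rows of the combined replicate list that lie on X and are typed as enriched, 1081 of 5003 enriched regions in all (21.6%). The same filter gave 892 of 4169 regions in replicate 1 and 925 of 4349 in replicate 2. The short heterochromatic sequence XHet, with 15 regions, is a separate sequence and is not included. Each region is an interval in FlyBase release 5, with a start, an end and a score, and positions below run from the telomere end of X towards the centromere. All X coordinates are from the deposited lists.

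The material was chromatin of wild-type Oregon-R embryos (official name Oregon-R-modENCODE) aged 14 to 16 h, fixed in 1.8% formaldehyde. BEAF was precipitated with BEAF-HB, an affinity-purified rabbit polyclonal antibody against residues 88 to 282 of the protein. The titles give 4 samples, with 2 ChIP libraries and 2 libraries of input DNA. The description fields go against the titles for replicate 1, since that of the ChIP sample speaks of input DNA and that of the input sample carries the antibody text. Titles were followed, so replicate 1 below is the list of the library titled ChIP replicate 1. No list of the input libraries was used, so no background level is given for the values below. The labels name embryos, with no treatment, tissue or sex, so the share of males and females is not known. Whether the ChIP replicates came from separate collections is also not stated, and the spread between them may be technical. The files hold no read counts, so the depth is unknown.

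BEAF, short for boundary element-associated factor, is an insulator protein of flies that binds DNA at the borders of chromatin domains. It recognises clustered CGATA motifs through an amino-terminal zinc finger, and much of its binding lies close to the start sites of active, often divergently transcribed genes. In flies the X chromosome is present as a pair in females and singly in males, where dosage compensation raises its transcription. None of these features was measured here. No genome or annotation of release 5 was used, so regions carry no gene names and no sequences.

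The density of X was 48.2 regions per Mb in the combined list, with an exact 95% Poisson interval of 45.4 to 51.2. It was 38.5 per Mb (37.3 to 39.8) on the 4 large autosomal arms as a whole. The density on X was 39.8 per Mb in replicate 1 and 41.3 per Mb in replicate 2, or 40.5 ± 1.04 (SD, n = 2). In the same libraries the nearest arm, 2R, had 38.2 and 39.9 per Mb, and the lowest, 2L, had 28.5 and 29.1 per Mb. X was therefore the highest of the 5 large arms in each of the 3 lists. An exact sign-flip test over 2 replicates cannot give a p below 0.5, so no test across samples was made.

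Against single arms, the X excess was clear for 3 of the 4 and not for 2R. The density ratio of X to 2L was 1.43 (95% interval 1.30 to 1.57, p = 1.13e-13 by an exact two-sided binomial test with Benjamini-Hochberg adjustment over 4 arms). It was 1.33 (1.22 to 1.45) against 3L by the same exact test, with adjusted p = 5.93e-10. Against 3R it was 1.23 (1.13 to 1.33), with an adjusted exact p of 3.09e-06. The ratio to 2R was 1.06 (0.974 to 1.16), and its adjusted exact p of 0.170 did not pass. In replicate 1 the ratio to 2R was 1.04 (0.946 to 1.15), and in replicate 2 it was 1.03 (0.941 to 1.14). These exact tests treat neighbouring regions as independent draws, which clustered regions are not, and their p-values are too small for that reason.

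**Figure D1:**
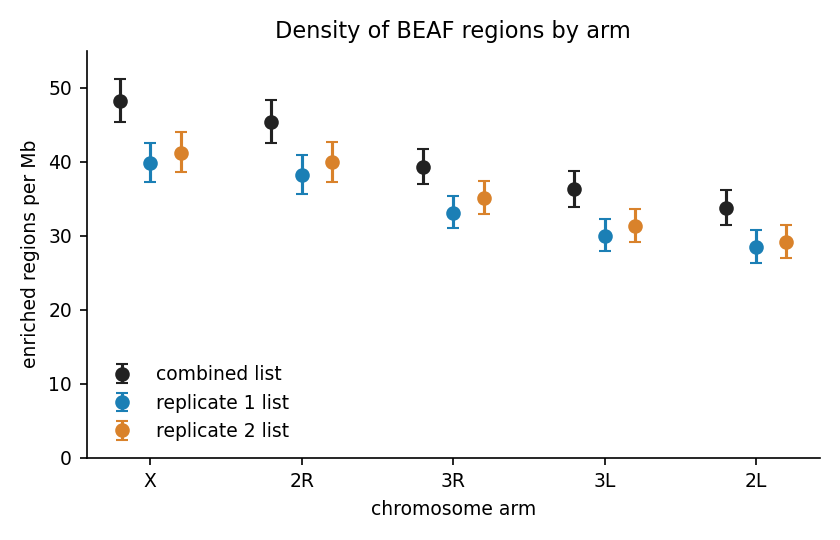
Enriched regions per Mb on the 5 large arms, with exact 95% Poisson intervals as bars. The combined list is black, replicate 1 blue and replicate 2 orange. X lies highest in each list, from 39.8 per Mb in replicate 1 to 48.2 in the combined list, and its interval overlaps that of 2R each time.

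Regions took up more of X than of any other large arm. In the combined list they covered 12.9% of X, against 11.5% of 2R, 9.99% of 3R, 8.99% of 3L and 8.68% of 2L. The covered share of X was 10.8% in replicate 1 and 11.4% in replicate 2, and those of 2R were 9.70% and 10.5%. The combined list typed 19 rows on the 4 autosomal arms as depleted, and 0 on X. Neither replicate list had a depleted row on any of the 5 arms, so this contrast exists in the combined list alone. Taking 3 rows as the limit that a count of 0 allows, the share on X could be up to 0.278% of 1081 rows, and the autosomal share was 0.508% of 3743 rows.

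Against the pooled autosomal arms, the extra density of X lay above the lowest score quartile and was uneven over the other 3. The score is the authors' own value per region. No source used here gives its definition or scale, so it serves only to rank regions within a list. Quartile limits were set over all enriched regions of a list, at 0.326, 0.882 and 2.64 in the combined list. X held 299 regions of the highest quartile, 27.7% of its regions (exact binomial interval 25.0 to 30.4), where by construction the whole list has 25.0%. It held 219 regions of the lowest quartile, 20.3% (17.9 to 22.8), against 24.7 to 28.1% on the other arms. In the lowest quartile the density of X was 0.945 times that of the 4 autosomal arms (95% interval 0.813 to 1.10). In the quartile above it the ratio was 1.52 (1.33 to 1.73), in the third 1.18 (1.02 to 1.36), and in the highest quartile 1.40 (1.22 to 1.60). These subsets were chosen after the values were seen, so the ratios are given with their counting intervals and no test.

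Both replicate lists had their lowest ratio in the lowest quartile and their highest ratio in the highest. In replicate 1 the ratios were 0.977 in the lowest quartile, 1.40 in the second, 1.13 in the third (0.963 to 1.31) and 1.44 in the highest. In replicate 2 they were 0.975, 1.31, 1.24 and 1.37. X and 2R, which differed little in total density, differed in this make-up. For highest-quartile regions the ratio of X to 2R was 1.24 (1.04 to 1.48), and for lowest-quartile regions it was 0.768 (0.639 to 0.921). The lowest-quartile ratio was 0.769 in both replicate lists. The highest-quartile ratio was 1.24 in replicate 1 and 1.21 in replicate 2, where its interval reached 0.999. Against 2L the lowest-quartile ratio was 1.17 (0.960 to 1.43) in the combined list. It was 1.26 (1.01 to 1.57) in replicate 1 and 1.37 (1.10 to 1.71) in replicate 2. The excess over 2L thus reached into the lowest quartile in both replicate lists. Against 3L and 3R the combined lowest-quartile ratios were 0.995 and 0.921.

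**Figure D2:**
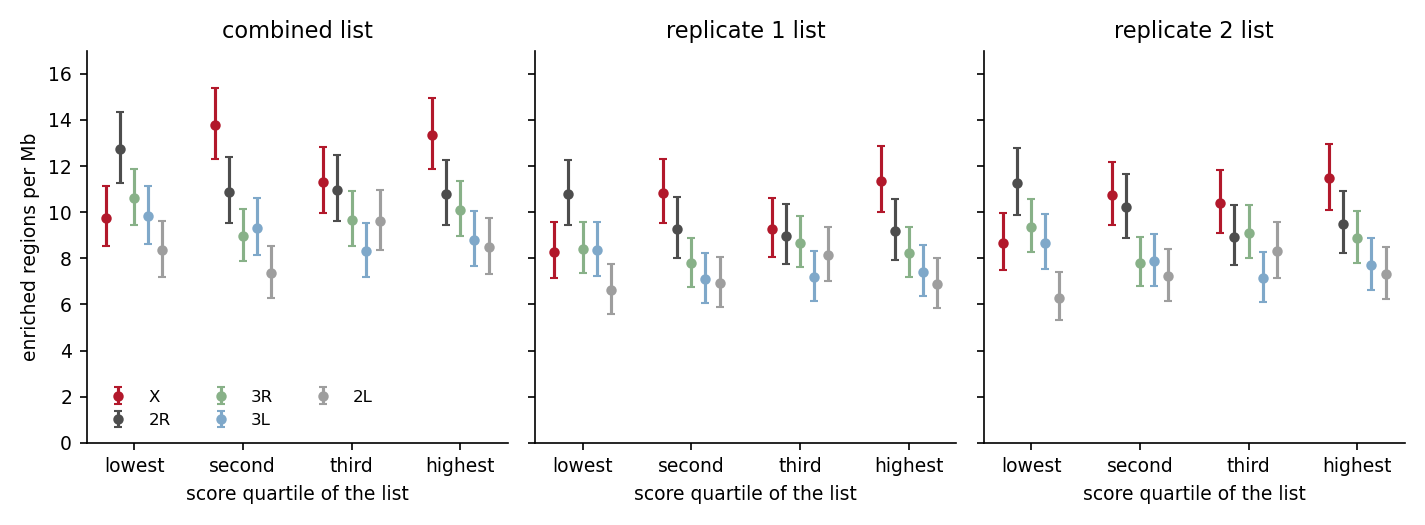
Regions per Mb in each score quartile for the 5 large arms, in the combined list and both replicate lists, with exact 95% Poisson intervals. X (red) is among the other arms in the lowest quartile, at 9.77 per Mb in the combined list, and above them in the second (13.8) and highest (13.3) quartiles.

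The strongest part of the list leaned further to X, except for the first 20 regions of the combined list. X held 3 of the 20 highest-scoring combined regions (15.0%), 16 of the highest 50 (32.0%), 31 of the highest 100 (31.0%) and 61 of the highest 200 (30.5%). In replicate 1 it held 5 of the highest 20 (25.0%), 17 of the highest 50 and 36 of the highest 100. In replicate 2 it held 6 of 20 (30.0%), 17 of 50 and 34 of 100. The low share among the first 20 was thus not seen in either replicate list. By comparison, 21.6% of all combined regions lay on X.

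Scores on X fell into a broad low group and a broad high group. The fullest bin of width 0.25 was 0.25 to 0.5, with 266 regions. The bin from 1.75 to 2 held 16, and a later peak of 50 regions lay at 3.5 to 3.75. That bin from 1.75 to 2 held 33 X regions in replicate 1 and 37 in replicate 2, so its low count was seen in the combined list alone. The autosomal arms had a like shape in the combined list. They held 780 regions at 0.25 to 0.5, 116 at 2.25 to 2.5 and 163 at 3 to 3.25. On the autosomal arms, 17.9% of regions scored under 0.25, whereas on X 11.7% did.

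The 10 highest-scoring X regions were found in both replicates at nearly the same coordinates. Recurrence does not set them apart from other strong regions. Of the higher-scoring 50% of regions, 99.8% on X were found in both replicates, and a mean of 99.7% on the autosomal arms. The highest of the 10 was at 5630718 to 5633354 and scored 4.89 in the combined list, 4.90 in replicate 1 and 4.88 in replicate 2. It ranked 3 of 5003, 2 of 4169 and 11 of 4349 in those lists. The next, at 11017340 to 11020386, scored 4.73, 4.70 and 4.85 in the same order, and 17041018 to 17044226 scored 4.59, 4.52 and 4.77.

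The other 7 of these 10 began at 14126826, 16334062, 17994134, 10739618, 12982768, 7794016 and 7953526. They ranked no lower than 31 in the combined list, 57 in replicate 1 and 58 in replicate 2. All 10 were 2637 to 4295 bp wide and lay between 25.1 and 80.3% of the arm length. None stood alone, since the nearest neighbouring midpoint was 3451 to 8291 bp away. A region just outside the 10, at 5928844 to 5934584, was picked out after its values were seen. It ranked 32 in the combined list (score 4.53) and 34 in replicate 1 (4.44), but 2 in replicate 2 (5.19), where the called interval was 4313 bp wide against 5391 bp in replicate 1.

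Wide regions were more frequent on X, and they were concentrated among its strong regions. The median width on X was 2385 bp, against 2339 bp on the 4 autosomal arms. The replicate medians were 2439.5 and 2449 bp on X, against 2377 and 2410 bp. The medians lay close together, and the upper part of the distribution differed more. Regions over 5000 bp numbered 74 on X (6.85%, exact binomial interval 5.41 to 8.52), where the whole list has 4.10%. On the autosomal arms the share lay between 2.91% on 3R and 3.86% on 2R. Per Mb of sequence such regions were 2.55 times as dense on X as on the autosomal arms (1.89 to 3.43), and 2.82 and 2.38 times in replicates 1 and 2.

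Among strong regions, those of X were also wider at a like score. In the highest score quartile the median width was 3221 bp on X and 2893 bp on the autosomal arms, with median scores of 3.55 and 3.46. Over 5000 bp were 53 of 299 such regions on X (17.7%, 13.6 to 22.5), against 66 of 921 on the autosomal arms (7.17%, 5.59 to 9.03). In replicate 1 the shares were 12.9% and 4.97%, and in replicate 2 they were 15.6% and 6.45%. The intervals of X and the pooled autosomal arms do not overlap in any of the 3 lists. Against single arms, the interval of X overlaps that of 2R in each list. The combined share of 2R was 9.65% (6.15 to 14.2). The interval of 2L overlaps that of X in both replicates, that of 3L in replicate 1 alone and that of 3R in no list. In the third quartile the median of X, 2603 bp, was above that of the pooled autosomal arms, 2543 bp, but below that of 3R, 2657 bp. In the replicates 3R was above X as well, at 2632 against 2597 bp and 2702.5 against 2697 bp. In the lowest quartile the order of X and the pooled arms was turned, at 1703 bp on X and 1725 bp on the autosomal arms. There 2L, at 1687 bp, and 3L, at 1693 bp, were below X. No region of the lowest quartile exceeded 5000 bp. The second quartile was turned as well, at 2037 bp on X and 2119 bp on the autosomal arms. Its medians were 2158 and 2185 bp in replicate 1, and 2157 and 2221 bp in replicate 2.

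**Figure D3:**
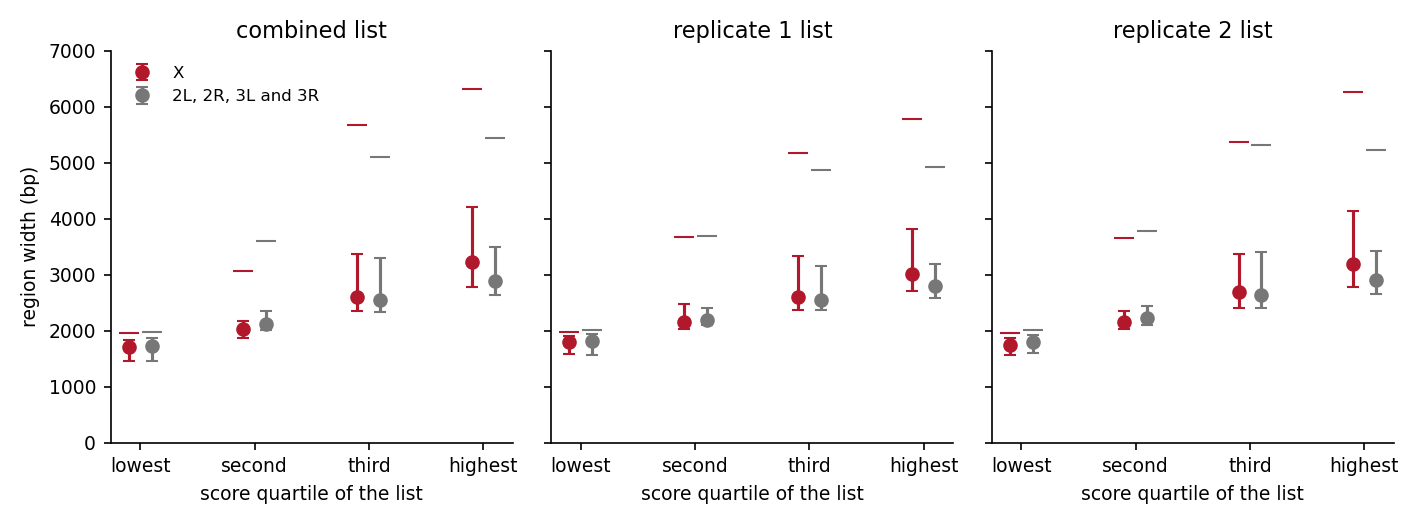
Region width by score quartile on X (red) and on the 4 autosomal arms together (grey), in the 3 lists. Points are medians, bars span the middle 50% of regions, and the short dashes mark the 95th percentile. In the highest quartile of the combined list the 95th percentile is 6324 bp on X and 5441 bp on the autosomal arms.

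Most wide X regions were called as 1 interval in the replicates too. All 74 overlapped a region in both replicates, as did all 125 wide regions of the autosomal arms. Of the 74 on X, 16 (21.6%, exact binomial interval 12.9 to 32.7) covered several separate regions of at least 1 replicate. On the autosomal arms 41 of 125 did so (32.8%, 24.7 to 41.8), and the intervals overlap. The counterpart exceeded 5000 bp in both replicates for 46 of the 74 on X and for 72 of the 125 on the autosomal arms.

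The widest X regions show both kinds. The region at 9048618 to 9059858 (11241 bp, score 3.06) was a single interval of 11009 bp in replicate 1 and 10188 bp in replicate 2. The regions at 4823298 to 4834274 (10977 bp, score 3.65) and 7823898 to 7834368 (10471 bp, score 4.07) were likewise single intervals of over 10000 bp in each replicate. By contrast, 11682758 to 11692302 (9545 bp, score 3.03) joined 3 regions of each replicate, the main one 3665 bp wide in replicate 1 and 3705 bp in replicate 2. Those 2 scored 4.22 and 4.31 in their own lists. The region at 22405416 to 22416644 (11229 bp, score 3.47) covered 2 regions in each replicate and is the last on X, ending 6183 bp before the end of the arm sequence. The others of the 10 widest started at 15779178, 8788738, 16212440, 9444292 and 513090 and were 7653 to 8693 bp wide.

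Along X the density was lowest next to the centromere. Arms were divided into 10 segments of equal length, 2.24 Mb each on X. In the telomere-end segment lay 134 regions, 59.8 per Mb with a 95% Poisson interval of 50.1 to 70.8. The centromere-end segment held 67, or 29.9 per Mb (23.2 to 37.9). The segments in between held 83 to 133. The replicates gave 112 and 116 regions in the telomere-end segment, against 53 and 50 in the centromere-end segment. Among the other arms the centromere-end segment had 20.0 per Mb on 3L, 30.9 on 2L, 36.4 on 2R and 46.2 on 3R. The value of X was therefore within the range of the autosomal arms there. The telomere-end segments of those arms had 32.3 to 50.6 per Mb.

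**Figure D4:**
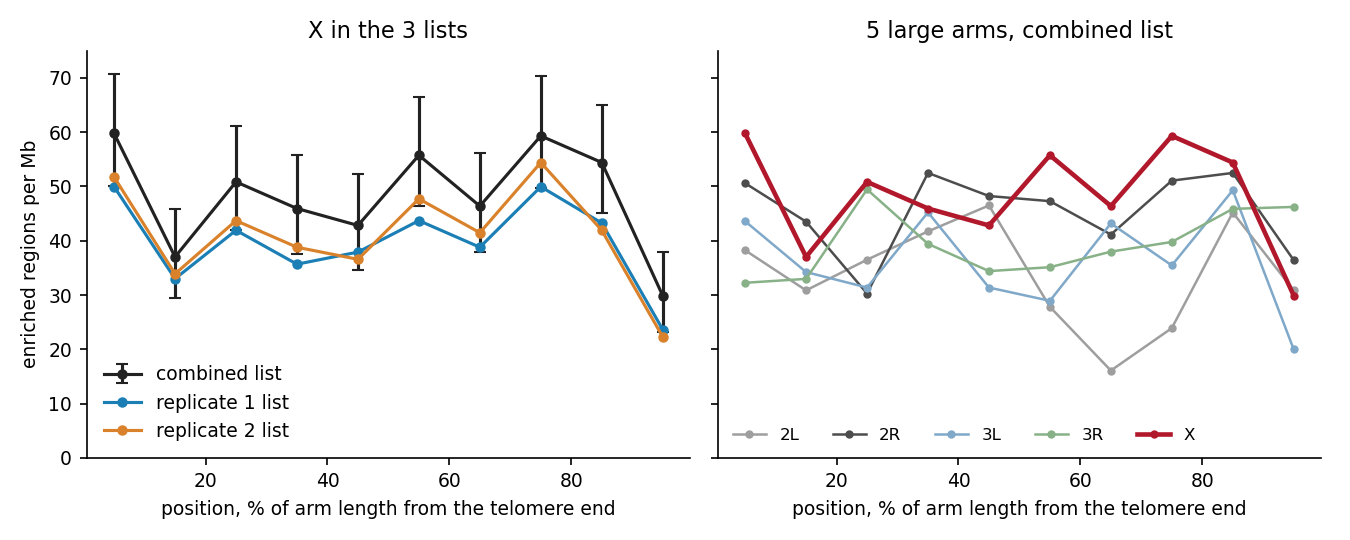
Regions per Mb in 10 equal segments of the arm, from the telomere end (left) to the centromere end (right). The left panel shows X in the 3 lists, with 95% Poisson intervals for the combined list, and the right panel shows the 5 large arms in the combined list. The X profile has the same peaks in both replicates and drops to 29.9 per Mb in the last segment.

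In windows of 1 Mb, the 22 full windows of X held 33 to 67 regions each, with a median of 49. The incomplete last window, 22000001 to 22422827 at the centromere end, held 3 regions in each of the 3 lists, or 7.10 per Mb. It was the sparsest window of X. The lowest counts in full windows of the other arms were 10 on 2L, 20 on 3L, 23 on 3R and 26 on 2R. Unevenness, as the variance over the mean of window counts, was 2.68 on X, between 1.67 on 2R and 3.98 on 2L. The replicates gave 2.47 and 3.09 for X.

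The fullest X windows of the combined list were 11000001 to 12000000 with 67 regions (52 in replicate 1, 61 in replicate 2), 1000001 to 2000000 with 66 (55 and 59) and 6000001 to 7000000 with 66 (56 and 58). The emptiest were 14000001 to 15000000 with 33 (27 and 31), 12000001 to 13000000 with 34 (27 and 27) and 21000001 to 22000000 with 35 (28 and 26). The fullest and the second emptiest of these windows are direct neighbours. The counts of the replicates followed each other over the windows (Pearson r = 0.965 across 22 windows, a description of one chromosome and not of samples). The window from 15000001 to 16000000, chosen after its value was seen, held 64 combined regions and 61 in each replicate. It was the fullest in replicate 1 and shared the first place in replicate 2 with 11000001 to 12000000. It also had the largest covered share of the 22 in the combined list, 20.5%, and 7 of its regions were wider than 5000 bp.

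X regions lay closer to their neighbours than those of the other arms. More regions per Mb alone place neighbours closer together. The part of density in the spacing values here and in the paragraphs below was not tested. Neighbouring midpoints on X were a median of 9112.5 bp apart over 1080 pairs, with a middle 50% from 5001 to 20117.5 bp. On the other large arms the medians were 10094 bp on 3R, 10356.5 bp on 2R, 11245.5 bp on 2L and 11476 bp on 3L. Replicate 1 gave 10101 bp on X and 11836.5 to 13779 bp on the others, and replicate 2 gave 10246.5 bp and 11033 to 12870 bp. On X 53.3% of pairs were under 10 kb apart (exact binomial interval 50.3 to 56.3), against 47.7% on the pooled autosomal arms (46.0 to 49.3). The X interval overlaps those of 3R (49.8%, 46.8 to 52.8) and 2R (48.4%, 45.2 to 51.7). In both replicates it overlaps those of 2L, 2R and 3R, and not that of 3L. Under 5 kb the shares were 25.0% (22.4 to 27.7) on X and 23.1% (21.8 to 24.5) on the pooled autosomal arms, and these intervals overlap. The shares lay further apart under 20 kb, with 74.9% of X pairs and 67.4% of autosomal pairs. On 2R 70.4% were under 20 kb (67.4 to 73.2), an interval that overlaps the 72.2 to 77.5 of X. Under 50 kb the shares were 89.8% (87.9 to 91.6) on X and 85.8% (84.6 to 86.9) on the pooled autosomal arms. On 2R that share was 89.0% (86.9 to 90.9).

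**Figure D5:**
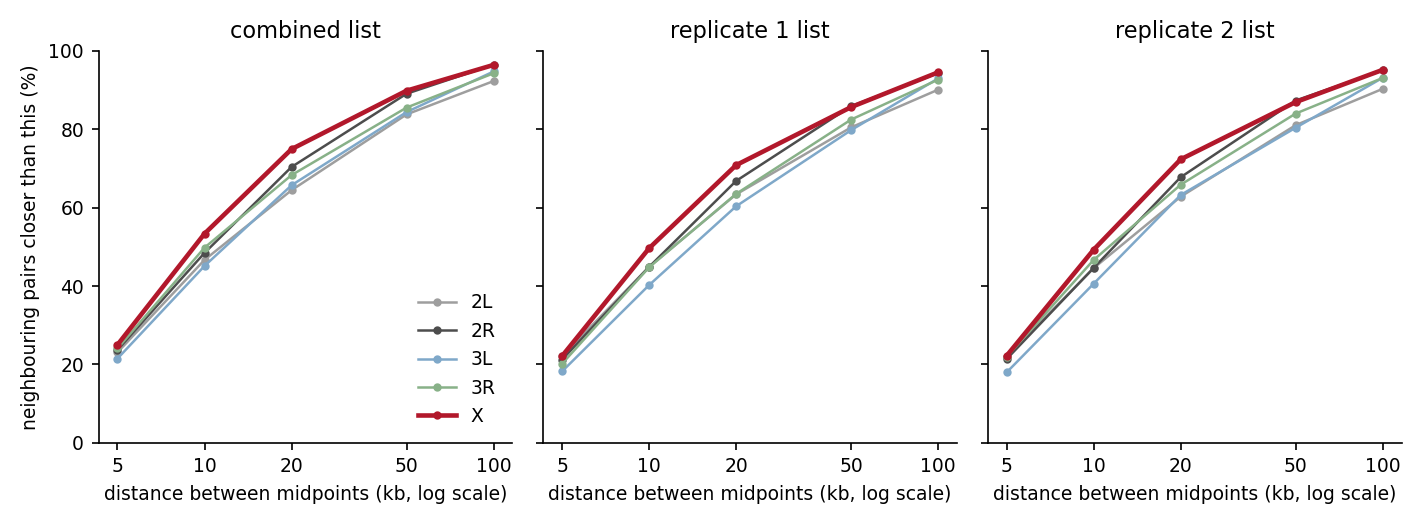
Share of neighbouring pairs closer than 5, 10, 20, 50 and 100 kb (log axis) on the 5 large arms, in the 3 lists. The X curve (red) lies above the others from 10 to 20 kb in each list, at 53.3% under 10 kb and 74.9% under 20 kb in the combined list.

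Chains of closely spaced regions held more of X than of any other large arm. A chain was defined as 3 or more regions with at most 5000 bp between the end of a region and the start of the next. X had 120 chains with 474 regions, 43.8% of its regions (exact binomial interval 40.9 to 46.9), where 36.9% of the whole list is chained. The next arm, 3R, had 38.0% (35.1 to 40.9), an interval that slightly overlaps that of X. On 2R, with a like density, the share was 37.5% (34.5 to 40.7). In replicate 1 the shares were 38.2% on X and 34.4% on 2R, and in replicate 2 they were 37.7% and 33.5%, with overlapping intervals. Of the X chains 66 had 3 regions, 26 had 4, and 28 had 5 or more, up to 9.

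Chained X regions of the combined list were more often of the highest score quartile than unchained ones. In chains 154 of 474 regions (32.5%, 28.3 to 36.9) were of the highest quartile, against 143 of 591 (24.2%, 20.8 to 27.9) among regions that were neither chained nor isolated. Replicate 1 gave 32.6% (27.6 to 37.8) against 26.8% (23.1 to 30.8), and replicate 2 gave 32.1% (27.2 to 37.3) against 25.8% (22.2 to 29.6). The order was the same, but the intervals overlap in both replicates. On the autosomal arms the shares were 26.2% (23.8 to 28.6) in chains and 24.4% (22.7 to 26.2) outside, and these intervals overlap. The lowest quartile ran the other way, with 15.4% (12.3 to 19.0) of chained and 23.4% (20.0 to 27.0) of the other X regions. In replicate 2 these shares were 12.0% (8.81 to 15.9) and 25.9% (22.4 to 29.8). In replicate 1 they were 17.3% (13.4 to 21.7) and 21.8% (18.3 to 25.5), with overlapping intervals. The autosomal arms ran the same way in the lowest quartile. Their combined shares were 22.3% (20.1 to 24.6) of chained and 28.9% (27.0 to 30.8) of the other regions. In replicate 2 these autosomal shares were 20.0% (17.6 to 22.6) and 28.3% (26.4 to 30.3). In replicate 1 they were 23.3% (20.7 to 26.1) and 26.7% (24.8 to 28.7), with overlapping intervals. The difference between X and the autosomal arms in this respect was not tested. Chains are defined by distances between edges, and on X wider regions scored higher (rank correlation, Spearman, 0.819 in the combined list). The part of width in the chained shares was not tested. Between midpoints, the nearest distance and the score on X had a Spearman value of -0.0717.

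The X chains with most regions differed in make-up. The chain at 6566850 to 6603724 held 9 regions in 36.9 kb, with scores from 0.270 to 4.22 and 5 of them in the highest quartile. Of its 9 regions 8 were found in both replicates and 1 in neither. The chain at 11463518 to 11494656 also held 9 regions, in 31.1 kb, but none was of the highest quartile. Its scores ran from 0.342 to 2.46, and 5 of the 9 regions were found in neither replicate. Those 5 were 1041 to 1747 bp wide, and the smallest distance between called intervals in this chain was 91 bp. This chain thus held 3 regions present in both replicates, and 1 found in replicate 2 alone.

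The chain at 21208424 to 21246668, near the centromere end, held 8 regions, 6 of them in both replicates, with scores from 0.137 to 3.17. Next came 6 chains of 7 regions each, of which the pair with the highest maximum scores is given first. These were at 15727420 to 15766120 and 19489206 to 19518256, and all their regions were found in both replicates. Their scores ran from 0.864 to 4.24 in the former and from 1.01 to 4.05 in the latter, and called regions filled 73.7% of either span. The other 4 chains of 7 regions started at 2591082, 17729702, 15355350 and 17179038. All regions of the first were found in both replicates, against 5, 6 and 4 of 7 in the others. The chain at 17179038 to 17204160 had 3 regions found in neither replicate and none of the highest quartile. The chain at 19489206 continues into the fullest stretch of 100 kb on X, 19500001 to 19600000, which was picked out after its values were seen. That stretch held 14 regions in each of the 3 lists, 13 of the combined ones in both replicates. Its scores were mostly moderate, with a median of 1.27 in the combined list and 1 region of the highest quartile.

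Long stretches without a region took up less of X than of 2L, 3L and 3R. Stretches over 100 kb numbered 36 on X and made up 25.9% of the arm, against 24.0% of 2R, 31.7% of 3L, 33.4% of 3R and 40.8% of 2L. In replicate 1 the share was 32.6% of X and 31.8% of 2R, and in replicate 2 it was 31.6% and 29.5%. Of 224 bins of 100 kb on X, 17 (7.59%) held no midpoint of a region, against 130 of 965 (13.5%) on the autosomal arms. Very long stretches were not rarer on X, as 3 of them exceeded 300 kb, against 4 on 2L, 3 on 3L, 1 on 2R and 0 on 3R.

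The longest X stretch without a region ran from 7222059 to 7559817 (338 kb), followed by 12023265 to 12355755 (332 kb) and 14155829 to 14473373 (318 kb). The next were 21505191 to 21789071 (284 kb) and 22036825 to 22273589 (237 kb), both near the centromere end. Neither replicate list had a region lying wholly inside any of these 5. The borders were of unequal strength. The second stretch ended at a region with a score of 4.09, and the third at a region with a score of 3.51. On their telomere sides stood regions scoring 0.231 and 0.364. Both edges of the longest stretch were weak, with scores of 0.354 and 0.585.

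Isolated regions were few on X and gathered towards the centromere. With no other midpoint within 50 kb, 16 of 1081 regions (1.48%, exact binomial interval 0.848 to 2.39) were isolated, where the whole list has 3.38%. On the autosomal arms the share was 3.01% (2.48 to 3.61), and on 2R it was 1.77% (1.04 to 2.82). Of the 16, 9 lay in the 20% of the arm next to the centromere. The 2 of the 10 equal segments that make up this part held 122 and 67 of all 1081 X regions. The same part of the other arms held 7 of 34 isolated regions on 2L, 5 of 17 on 2R, 4 of 29 on 3L and 7 of 32 on 3R. Isolated regions had a median score of 0.322 on X and 0.450 on the autosomal arms. Found in both replicates were 81 of 112 (72.3%) on the autosomal arms and 8 of the 16 on X. The strongest were 20986728 to 20989532, with a score of 3.77 (3.87 in replicate 1 and 3.79 in replicate 2), and the last region of the arm, 22405416 to 22416644, whose nearest midpoint was 137 kb away. They were followed by 19904112 to 19906534 (1.78), 22034336 to 22036824 (1.65) and 18902096 to 18904200 (0.661). The last of these scored 0.375 in replicate 1 and 1.06 in replicate 2.

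X regions recurred in the replicates about as often as those of the other arms. Of the 1081 combined regions, 825 (76.3%, exact binomial interval 73.7 to 78.8) overlapped a region in both replicates by at least 1 bp, where the whole list has 77.8%. A further 136 were found in 1 replicate, 50 in replicate 1 alone and 86 in replicate 2 alone. The remaining 120 (11.1%, 9.29 to 13.1) were found in neither, against 10.1% of the whole list. The median score was 1.69 for regions in both, and for those in 1 replicate or in neither it was 0.253 and 0.302. Of the 120 in neither, 57 were narrower than 1302 bp, the narrowest width in either replicate list. The highest-scoring of the 120 was 6456726 to 6457998, at 0.945, and the next 4 (18449442 to 18450444, 20375276 to 20376326, 11487300 to 11488388 and 1831254 to 1832344) scored 0.646 to 0.857. All 5 were under 1302 bp wide.

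In most matched pairs on X replicate 2 had the wider region, and in most it had the higher score. Matched to one another, 832 pairs of X regions had midpoints a median of 40 bp apart, with a 95th percentile of 367 bp. In 626 of them (75.2%) replicate 2 had the wider region, by a median of 81 bp over all pairs, and had the higher score in 82.5%. The scores of the pairs had a Pearson r of 0.988 (a description over 832 pairs of regions of 1 chromosome). On the autosomal arms the replicate 2 region was wider in 76.1% and scored higher in 85.3% of 2929 pairs. All 892 replicate 1 regions and 922 of the 925 replicate 2 regions on X overlapped a combined region.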

How the data were processed

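Per the file headers, the authors' lists give regions in FlyBase release 5 with the length of every sequence. Each row has a start and an end in bp, a type and a score deposited by the authors. The submitters' processing notes name Bowtie 0.12.7. No source used here gives the peak caller, its thresholds, the meaning of the score or the way replicates were combined, so their effect on widths, on joined regions and on the number of weak regions is unknown. Regions were read as 1-based inclusive intervals, with the midpoint as their position. Enriched rows on X were compared with those on 2L, 2R, 3L and 3R. A region was found in a replicate where it shared at least 1 bp with an enriched region there. Intervals (95%) are exact Poisson or Clopper-Pearson and cover counting of regions only. Density ratios are from exact two-sided binomial tests with arm length as the expected share. Regions named are the 10 highest-scoring, the 10 widest, the 5 chains with most regions (ties broken by the highest score in the chain), the 5 longest empty stretches, the 3 fullest and 3 emptiest windows, and the 5 strongest isolated and unreplicated regions. The regions, lists and thresholds were chosen with earlier results of these data known. The calculations were tested on simulated intervals. Python 3.11.15, numpy 2.4.6, scipy 1.17.1 and pandas 2.3.3 were used. The annotation table at hand refers to Release 6 and was not used.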

Additional observations from a re-analysis of the deposited data

How the results depend on the processing

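No paired analysis was possible because the input libraries have no region lists to set against the ChIP lists of the same number. The density ratio of X to the 4 autosomal arms, 1.25, was 1.21 to 1.29 under 6 alternatives and passed the exact binomial test in each. Of 83 alternative values, 25 stayed within the counting error or test side of the main one and 58 moved. X nevertheless lay on the same side of the autosomal mean in 66 of 67 alternatives that have such a mean. The exception was recurrence among the higher-scoring 50% of regions, 99.8% on X against 99.7%. The alternatives reuse the same lists and are not independent. Being above or below that mean also does not set X apart from each arm. In the combined list its median score, 0.910, was above those of 2R and 3L but below 2L (1.07) and 3R (0.917). Its median width, 2385 bp, was above those of 2R, 3L and 3R but below 2L (2387 bp). The higher-scoring 50% of regions covered 8.47% of X. They had a median width of 2937 bp and a median score of 2.77, and were wider than 5000 bp in 12.8% of cases. Their median spacing was 14903 bp, with 37.7% of neighbours under 10 kb, 27.8% of regions in chains, 52.9% of X in stretches over 100 kb and 54.1% of regions in the highest quartile. For regions of at least 1500 bp the same 9 values were, in that order, 12.2%, 2489 bp, 1.24, 7.70%, 9869 bp, 50.4%, 41.4%, 30.1% and 31.1%, and 85.8% were found in both replicates. For regions found in both replicates they were 11.2%, 2619 bp, 1.69, 8.97%, 11133.5 bp, 47.1%, 36.4%, 35.8% and 36.2%. The replicate lists, each used alone, gave 10.8 to 11.4%, 2439.5 to 2449 bp, 1.43 to 1.58, 5.72 to 6.81%, 10101 to 10246.5 bp, 49.2 to 49.6%, 37.7 to 38.2%, 31.6 to 32.6% and 27.8 to 28.6%. Recurrence judged in 1 replicate was 80.9 to 84.3%. Other thresholds moved shares by construction. The wide share was 12.4% over 4000 bp and 2.13% over 6000 bp. Neighbours were within 5 kb in 25.0%, within 20 kb in 74.9% and, measured edge to edge, within 10 kb in 61.7%. Chains held 21.7% of regions at 2500 bp and 69.0% at 10000 bp. Stretches over 50 kb made up 46.8% of X and those over 200 kb 8.59%. Unevenness was 1.69 in windows of 2 Mb and 2.47 to 3.09 in the replicates. The density ratio of the second-lowest quartile, an alternative chosen after seeing the data, was 1.31 to 1.40 in the replicates against 1.52. The depth behind the lists is unknown, so what it limits cannot be stated.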
